A study of Mus musculus with 12 samples.

Results

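Homeostatic and disease-associated microglia genes were followed in the brains of mice that lack presenilins in cholinergic neurons. Microglia are the resident macrophages of the brain. Resting microglia hold a surveillance program of receptors and transcription factors that includes Cx3cr1, P2ry12, Tmem119, Sall1 and Fcrls, while microglia near plaques, damaged neurons or degenerating myelin lower much of that program and raise a disease-associated one with Apoe, Lpl, Cst7, Clec7a, Itgax, Spp1 and lysosomal genes. The change depends in part on Trem2, a lipid-sensing surface receptor that signals through the adaptor Tyrobp (DAP12) and whose membrane stub is one of the substrates of gamma-secretase, the protease that has a presenilin as its catalytic subunit. The 33 genes were taken by name from the array annotation, 15 of them homeostatic or general microglia genes and 18 disease-associated, out of 37306 gene names on the array. Each gene was read by its brightest probe.

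RNA from basal forebrain (BF) and cortex (CTX) of 6 mice was measured on 12 one-colour arrays, so that each mouse gave 1 array per region and each group held 3 mice. The double knockout mice (DKO) carried ChatCre, a pair of floxed alleles and no functional Psen2 (PS2-/-), and the controls (Con) carried no Cre, the same floxed alleles and 1 functional Psen2 copy (PS2+/-). All were 2 months old and labelled male. Cre under the Chat promoter acts on the floxed alleles only where Chat is or was active, which in these tissues means cholinergic neurons, whereas Psen2 is missing from every cell of the DKO mice, microglia included, and is reduced to 1 copy in every cell of the controls; the comparison therefore does not separate the neuronal from the body-wide loss.

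Levels are log2 processed signals with 0 at the 75th percentile of each array, and they can be compared between arrays for 1 gene but not between genes. Between 68.9 and 74.97% of the probes were well above background on an array. Psen2, the deleted gene, was at -1.86, -1.44 and -1.25 in DKO BF, against 0.39, 0.25 and 0.42 in Con BF, and at -1.70, -1.59 and -1.67 in DKO CTX, against 0.42, 0.50 and 0.47 in Con CTX. Xist was well above background in both regions of DKO mice 1 and 3, where Ddx3y, Eif2s3y and Uty were not, which goes against the male label of those 2 mice. DKO mouse 2 and the 3 Con mice had the reverse pattern. Kdm5d, also Y-linked, was well above background on all 12 arrays and did not show this pattern. Sex, as read from Xist, Ddx3y, Eif2s3y and Uty, was therefore partly tied to genotype in both regions. The barcodes place the arrays on 2 slides. Slide 1 held all 6 BF arrays and the cortex of DKO mice 1 and 2, and slide 2 held the cortex of DKO mouse 3 and of the 3 Con mice. Genotype was therefore compared within 1 slide in BF, was partly tied to slide in CTX, and region was wholly tied to slide in Con mice.

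All 33 genes were well above background on all 12 arrays and none was saturated, so every member entered every test. The label fits the array in that each defining gene was measured, but several of the 33 are not private to microglia in bulk brain: Apoe is also made by astrocytes, and Lpl, Cd9, Cd63, Fth1 and the cathepsins are made by several brain cell types. Of the 33 brightest probes, 2 shared a run of 20 bases with a probe of another gene. These were the probes of Itgam, the CD11b integrin chain, and Siglech, a sialic-acid-binding lectin. The Itgam probe (chr7:135261755-135261814 of mm9, + strand) shared such a run with 29 probes of other genes, and the Siglech probe (chr7:63034088-63034147, + strand) with 4. In the RefSeq promoter windows of 27025 genes, a run of the Itgam probe occurred beside 78 other genes, on either strand, and one of the Siglech probe beside 7. The first 30 bases of both Itgam probes and 30-base stretches of the 3 Siglech and 3 Olfml3 probes are printed because the reading of these 3 genes depends on the probe. Capitals mark bases inside a 20-base run that also lies in a promoter window of a gene of another name.
Itgam, brightest probe, bases 1 to 30: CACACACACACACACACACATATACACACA
Itgam, other probe (chr7:135212140-135212199, + strand), bases 1 to 30: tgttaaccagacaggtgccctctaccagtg
Siglech, brightest probe, bases 4 to 33: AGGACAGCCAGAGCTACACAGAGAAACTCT
Siglech, probe in the same transcript (chr7:63024045-63024269, + strand), bases 1 to 30: CAAAACATGGAATTTCTGTGAGGAAAGGAT
Siglech, remaining probe (chr7:63028608-63028667, + strand), bases 1 to 30: attggattaatccagtgtgtgaacagtctt
Olfml3, brightest probe (chr3:103540414-103540473, - strand), bases 1 to 30: ttagacggcacccagaacgacacggctttt
Olfml3, second probe (chr3:103537878-103537937, - strand), bases 1 to 30: actgcacgtatacaaatgagtggctttgtt
Olfml3, remaining probe (chr3:103535597-103535656, - strand), bases 1 to 30: ttagaaatgatggatcagagaacttagatc
The Itgam stretch is a CA repeat, and the Siglech stretch has the sequence of a mouse B1 short interspersed element. Whether the signals of these probes hold RNA of other genes was not tested. The run of the Siglech probe at chr7:63024045-63024269 lay beside 1 other gene.

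**Figure D1:**
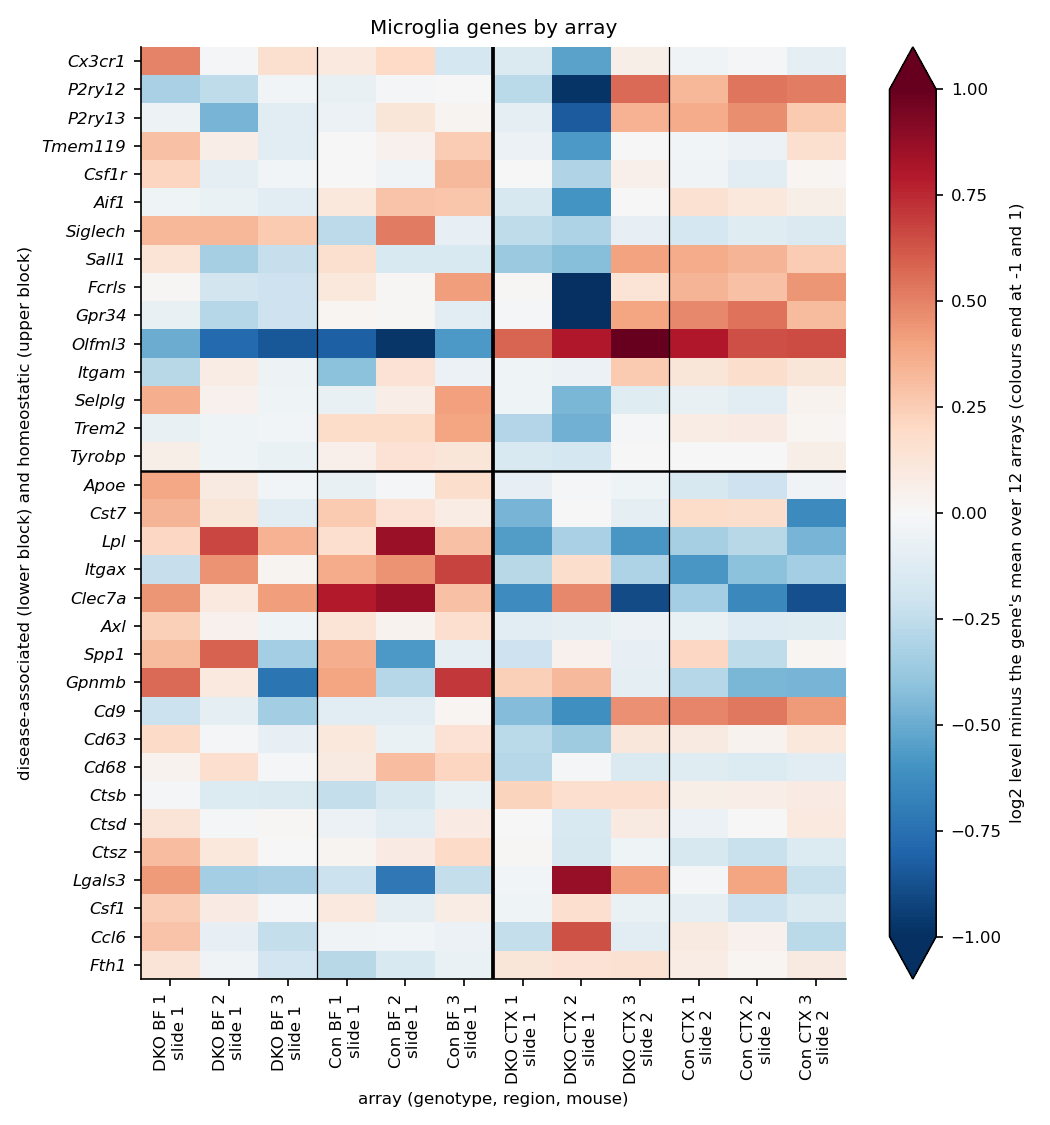
Log2 level of each of the 33 genes (rows; homeostatic block above, disease-associated block below) minus that gene's mean over the 12 arrays (columns, by genotype, region, mouse and slide), with colours ending at -1 and 1. The cortex array of DKO mouse 2 is low across the homeostatic block, Olfml3 is low in all 6 BF arrays, and Lpl is high in all 6.

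In basal forebrain, where all 6 arrays lay on 1 slide, no member passed the test between genotypes (limma, Benjamini-Hochberg adjusted p under 0.05 over 26102 genes), against 0.0306% of all genes. At an unadjusted p under 0.05 there were 2 of 33 members, against 4.39% of all genes. Homeostatic genes had a median DKO minus Con difference of -0.09, against 0.00 for disease-associated genes and 0.00 for all genes. Of the 15 homeostatic genes 11 had a negative difference, as had 9 of the 18 disease-associated ones and 48.9% of all genes. The DKO and Con groups did not overlap for 3 members, against 9.95% of all genes, and all 3 (Trem2, Aif1 and Fcrls) had lower values in DKO, against 5.32% of all genes. A lower microglial signal in DKO BF was therefore not established. Even where a value is lower, bulk tissue does not tell fewer microglia from less RNA per microglial cell.

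Trem2 was at 2.041, 2.071 and 2.083 in DKO BF, against 2.299, 2.300 and 2.505 in Con BF. Its difference was -0.30 ± 0.08 (SE; limma, adjusted p 0.973, unadjusted p 0.00567). The 3 DKO mice lay close together and below every Con mouse. Aif1, which encodes the microglial marker Iba1, was at 1.30, 1.28 and 1.22 in DKO BF, against 1.45, 1.63 and 1.62 in Con BF. The Aif1 difference was -0.30 ± 0.08 (limma, adjusted p 0.973, unadjusted p 0.00581). Fcrls, an Fc-receptor-like gene of mouse microglia, was at -0.172, -0.370 and -0.391 in DKO BF, against -0.083, -0.171 and 0.232 in Con BF, so that DKO mouse 1 and Con mouse 2 were all but equal. The 95% intervals of the Trem2 (-0.48 to -0.12) and Aif1 (-0.48 to -0.12) differences leave out 0 before adjustment, and that of Fcrls (-0.61 to 0.00) ends at it. Trem2 and Aif1 each rest on 1 probe. A second Fcrls probe, well above background on 9 of 12 arrays, had the other sign in BF (0.23). The Fcrls difference in BF ranged from -0.39 to -0.03 over the alternatives.

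The other homeostatic genes overlapped between genotypes in BF. Tyrobp, the partner of Trem2, differed by -0.12 ± 0.07 and P2ry13, a purinergic receptor, by -0.24 ± 0.13 (SE; limma, adjusted p 0.973 each). P2ry12, the ADP receptor that steers microglial processes, differed by -0.17 ± 0.09. Siglech had the highest positive difference of the block, at 0.25 ± 0.19, on the repeat-bearing probe, while its other probes differed by 0.15 and -0.11. Among disease-associated genes the smallest p-values belonged to Itgax (CD11c; -0.42 ± 0.22), the tetraspanin Cd9 (-0.15 ± 0.09), the lysosomal glycoprotein Cd68 (-0.14 ± 0.09) and Clec7a (Dectin-1; -0.33 ± 0.20), each with a limma adjusted p of 0.973. The lipid carrier Apoe differed by 0.13 ± 0.14, the lipase Lpl by -0.04 ± 0.20 and the secreted phosphoprotein Spp1 (osteopontin) by 0.29 ± 0.30. Gpnmb, a lysosome-linked glycoprotein, ranged between -4.42 and -3.13 in DKO BF and between -3.98 and -2.98 in Con BF, a spread wider than its difference of -0.29.

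**Figure D2:**
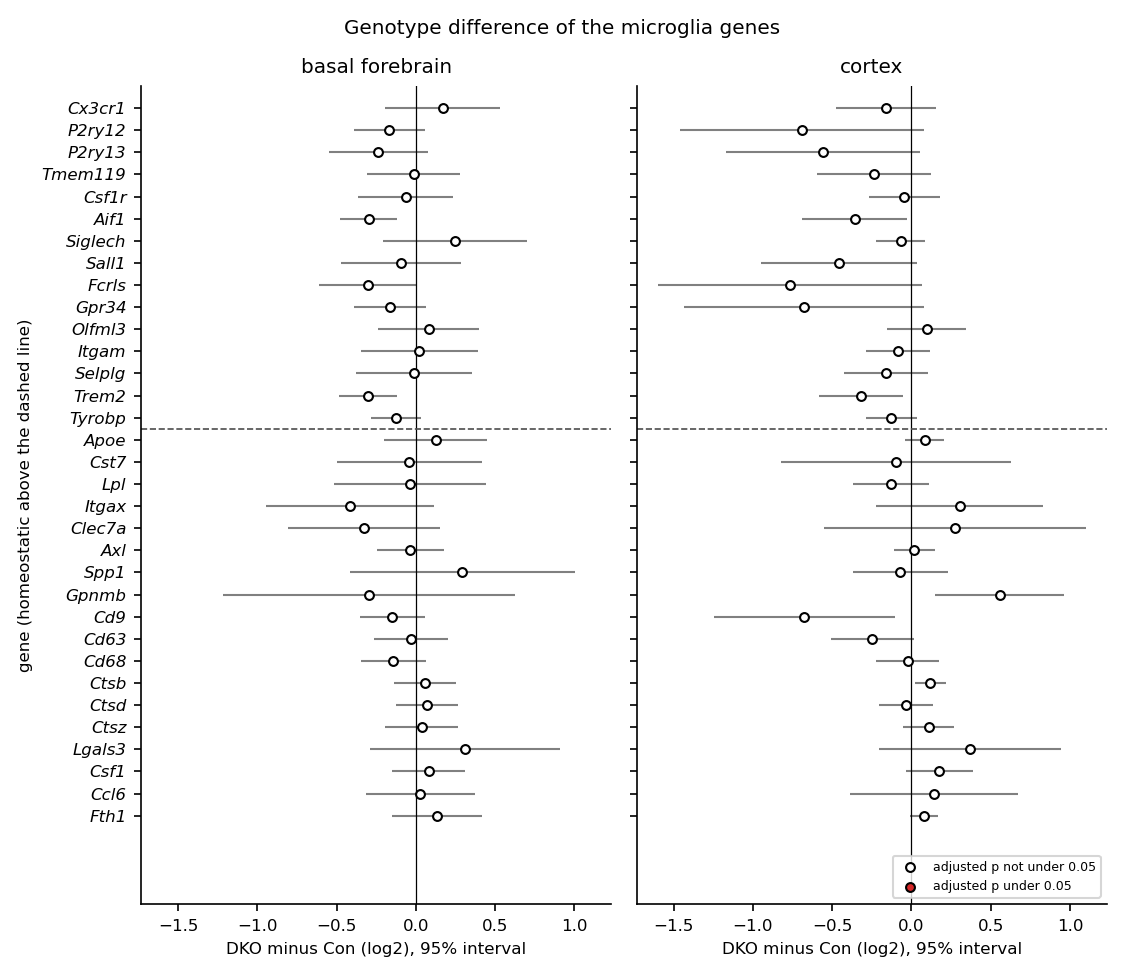
DKO minus Con log2 difference of the 33 genes in basal forebrain (left) and cortex (right), with 95% confidence intervals from the limma fit (3 mice a group). No gene reaches an adjusted p under 0.05, and homeostatic genes in cortex lie mostly left of 0 with wide intervals.

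In cortex, no member passed either (limma; 0.0116% of 25798 genes did), and the smallest adjusted p of a member was 0.261. At an unadjusted p under 0.05 there were 5 of 33 members, against 18.9% of all genes. The median difference of the homeostatic genes was -0.24, against 0.08 for the disease-associated genes and -0.05 for all genes. Negative differences were found in 14 of 15 homeostatic genes, 7 of 18 disease-associated genes and 58.5% of all genes. The oligodendrocyte genes, markers of another glial cell, were negative for 9 of 10 with a median of -0.18, and their part was not tested. Without DKO cortex mouse 2 the homeostatic median was -0.09. The groups did not overlap for 8 members, against 22.4% of all genes. Trem2, Aif1 and Fcrls had lower values in DKO, against 13.5% of all genes, and Gpnmb, Ctsb, Fth1, Csf1 and Itgax higher ones, against 8.86%.

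Trem2 was at 1.82, 1.63 and 2.10 in DKO CTX, against 2.19, 2.20 and 2.13 in Con CTX, a difference of -0.32 ± 0.11 (SE; limma, adjusted p 0.261). Aif1 was at 1.18, 0.75 and 1.34 in DKO CTX, against 1.49, 1.45 and 1.40 in Con CTX, a difference of -0.36 ± 0.14 (limma, adjusted p 0.261). In both genes DKO mouse 3 lay just under the lowest Con mouse and DKO mouse 2 far below it. Fcrls was at -0.17, -1.56 and -0.05 in DKO CTX, against 0.15, 0.11 and 0.25 in Con CTX, so its difference of -0.77 ± 0.36 (limma, adjusted p 0.279) came largely from DKO mouse 2. Of the disease-associated genes, Gpnmb was at -3.46, -3.37 and -3.79 in DKO CTX, against -3.98, -4.15 and -4.16 in Con CTX, a difference of 0.56 ± 0.17 (limma, adjusted p 0.261). All 3 DKO mice were above all Con mice, though in BF the same gene overlapped. Ctsb, a lysosomal cysteine protease, was at 6.161, 6.104 and 6.103 in DKO CTX, against 5.993, 5.998 and 6.020 in Con CTX, a difference of 0.12 ± 0.04. Csf1, a ligand of Csf1r, differed by 0.17 ± 0.09, Fth1, the ferritin heavy chain, by 0.08 ± 0.04 and Itgax by 0.30 ± 0.23 (limma, adjusted p 0.307, 0.287 and 0.437).

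Several members followed the slide within DKO cortex. P2ry12 was at 0.50 and -0.21 in the DKO mice of slide 1 and at 1.34 in the DKO mouse of slide 2, against 1.11, 1.31 and 1.29 in Con CTX. P2ry13 was at -0.41, -1.16 and 0.02 in DKO CTX, against 0.05, 0.14 and -0.07 in Con CTX. Gpr34, a lysophosphatidylserine receptor, was at -0.33, -1.37 and 0.09 in DKO CTX, against 0.18, 0.24 and 0.01 in Con CTX. In each of these receptors the DKO mouse that shared the slide of the controls lay inside or above their range, and the 2 others lay below it. The zinc-finger factor Sall1, which holds microglial identity, was at -1.29, -1.35 and -0.52 in DKO CTX, against -0.54, -0.58 and -0.66 in Con CTX, a difference of -0.46 ± 0.21 (limma, adjusted p 0.277). Cd9 was at 1.62, 1.44 and 2.51 in DKO CTX, against 2.54, 2.58 and 2.48 in Con CTX, and its 3 Con BF values on slide 1, between 1.94 and 2.08, were also below all the slide 2 values. The cortex difference was -0.68 ± 0.25 for Cd9 and -0.25 ± 0.11 for its fellow tetraspanin Cd63 (limma, adjusted p 0.261 and 0.274).

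Against the 3 Con cortex arrays, the mean of the 2 DKO arrays of slide 1 was lower for 15 of 15 homeostatic genes with a median of -0.34, and the DKO array of slide 2 was lower for 8 of 15 with a median of -0.02. For the disease-associated genes the medians were 0.08 on slide 1 and 0.06 on slide 2. Of all 25798 genes, 57.7% were lower on slide 1, with a median of -0.06, and 52.9% on slide 2, with a median of -0.01. On slide 2 Trem2 differed by -0.07, Aif1 by -0.11 and Fcrls by -0.22, each from 1 DKO mouse. Slide 1 held no Con cortex array, so a fit with slide as a block compares DKO mouse 3 alone with the 3 Con mice and assumes that this mouse varies like the others. In that fit the median of the homeostatic genes was -0.02 and no member passed. Without DKO cortex replicate 3, when genotype and slide are the same split, 14 members and 9759 of 26082 genes passed. Without the 2 mice that had Xist signal, which leaves DKO mouse 2 alone against the 3 controls and assumes that this mouse varies like them, 20 members and 7742 of 26289 genes passed. Over all 12 arrays, 6 members did not overlap between the slides: P2ry12, P2ry13, Sall1, Gpr34 and Cd9 were lower on slide 1 and Itgax higher, which is 18.2% of the members against 28.7% of the 23788 genes well above background on every array. Genotype and slide cannot be told apart for the 2 DKO mice of slide 1.

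**Figure D3:**
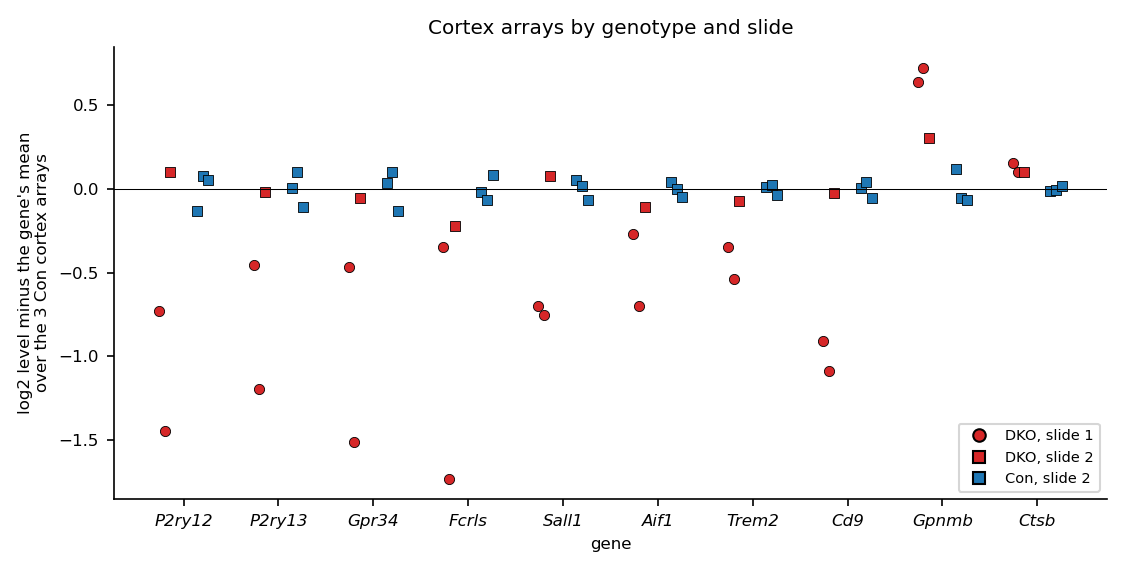
Log2 level of 10 members in the 6 cortex arrays, each minus the gene's mean over the 3 Con cortex arrays; red marks are DKO, blue marks Con, circles slide 1 and squares slide 2. The DKO square of P2ry12, P2ry13, Gpr34, Sall1 and Cd9 sits among or above the Con squares and the DKO circles lie below, while for Gpnmb and Ctsb all 3 DKO marks lie above the Con marks.

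DKO cortex mouse 2 stood lowest of the 12 arrays in the homeostatic block, with a median deviation of -0.48 from the gene means and 1 of 15 genes above its mean. The other 11 arrays ranged between -0.09 and 0.12. The same array had the highest cortex values of Clec7a (-2.98, against -4.35 to -3.80 in the other cortex arrays), of the chemokine Ccl6 (-0.31, against -1.22 to -0.86) and of galectin-3, Lgals3 (-1.13, against -2.22 to -1.59). The BF array of the same mouse had a median homeostatic deviation of -0.06, within 0.01 of that of DKO BF mouse 3. The cortex array of DKO mouse 2 also had the highest mean level of the neutrophil genes in cortex, at -0.51. The other DKO cortex arrays were at -1.51 and -0.98, and Con CTX ranged from -3.37 to -2.83. The 10 oligodendrocyte genes were also lowest of the 12 arrays there, with a median deviation of -0.55 and 1 of 10 above its mean. The part of slide, sex, mouse or other cells in this array was not tested.

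Averaged over both regions of each mouse, no member passed between genotypes (limma, 0.161% of 24825 genes passed), while 7 of 33 had an unadjusted p under 0.05, against 11.1% of all genes. The homeostatic median was -0.13, the disease-associated median 0.05 and that of all genes -0.02. The 3 DKO and the 3 Con mice did not overlap for 9 of 33 members, against 17% of all genes. The 7 with lower values in DKO, against 10.4% of all genes, were Trem2 (-0.31 ± 0.07, limma adjusted p 0.304), Aif1 (-0.33 ± 0.08, adjusted p 0.344), Cd9 (-0.41 ± 0.10, adjusted p 0.345), Fcrls (-0.53 ± 0.20), Tyrobp (-0.12 ± 0.05), Gpr34 (-0.42 ± 0.18) and P2ry13 (-0.40 ± 0.18). The 2 with higher values in DKO, against 6.57% of all genes, were Lgals3 (0.34 ± 0.11, limma adjusted p 0.402) and Ctsb (0.09 ± 0.05). Cd63 (-0.14 ± 0.07) and Fth1 (0.11 ± 0.06) overlapped. These averages use the same cortex arrays and so carry the same tie to the slide. Without DKO mouse 3, Cd9 passed (-0.54, limma adjusted p 0.0125), the only member to do so, as did 216 of 25051 genes.

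The genotype difference was not shown to differ between regions for any member (limma interaction over 12 arrays, 0 of 26959 genes passed). At an unadjusted p under 0.05, 8.36% of all genes and 1 member were found. That member was Itgax, with an interaction of -0.72 ± 0.32 (limma, adjusted p 0.562), and Gpnmb followed at -0.85 ± 0.45. Of the homeostatic genes the smallest p-values were those of Cx3cr1, the fractalkine receptor (0.33 ± 0.22, limma adjusted p 0.598), and Siglech (0.32 ± 0.21). Without DKO cortex replicate 3, 2 members and 9.59% of 27023 genes passed the interaction test.

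Basal forebrain and cortex were then compared within each genotype. In DKO mice 5 of 33 members passed for BF minus CTX, against 39.9% of 25916 genes; 3 were higher in BF, against 19.3% of genes, and 2 lower, against 20.6%. With the authors' normalized values 15 members and 42.3% of all genes passed in DKO mice. In Con mice 10 of 33 passed, against 49% of 26592 genes; 6 were higher, against 18.5%, and 4 lower, against 30.5%. Lpl was called higher in BF, and Olfml3 and Ctsb lower, in both genotypes.

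Lpl, the lipoprotein lipase that is also made by neurons and other brain cells, was at 0.39, 0.85 and 0.53 in DKO BF, against -0.38, -0.14 and -0.40 in DKO CTX. In Con mice it was at 0.36, 1.05 and 0.48 in BF, against -0.15, -0.10 and -0.28 in CTX. All 6 BF values were above all 6 CTX values. The BF minus CTX difference was 0.90 ± 0.17 in DKO (SE; limma, adjusted p 0.00156) and 0.80 ± 0.17 in Con (adjusted p 0.00263). The 4 of 6 Lpl probes that were well above background on all 12 arrays were higher in BF, by 0.90 to 1.57 in DKO and by 0.80 to 1.33 in Con. In the 2 DKO mice with both arrays on slide 1 the difference was 0.88 ± 0.18 (limma, adjusted p 0.0207).

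Olfml3, a secreted olfactomedin-like protein counted among microglial genes, was at 1.69, 1.40 and 1.34 in DKO BF, against 2.76, 2.98 and 3.18 in DKO CTX, and at 1.37, 1.21 and 1.61 in Con BF, against 2.98, 2.82 and 2.83 in Con CTX. No value of one region came near the other. The difference was -1.50 ± 0.13 in DKO (limma, adjusted p 4.39e-06) and -1.49 ± 0.13 in Con (adjusted p 5.17e-06), and -1.33 ± 0.13 within slide 1 in DKO. The sign belongs to the probe printed first for this gene, which starts at base 579 of its RefSeq transcript: the 2 probes annotated to longer Ensembl transcripts, at bases 3666 and 5396, were higher in BF, by 0.78 and 0.78 in DKO and by 0.53 and 0.18 in Con. The direction for the gene is thus not settled. Ctsb differed by -0.29 ± 0.06 in DKO (limma, adjusted p 0.00378) and by -0.23 ± 0.06 in Con (adjusted p 0.0119), on a single probe.

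Siglech and Cx3cr1 passed in DKO mice and not in Con mice. Siglech was at 5.56, 5.56 and 5.49 in DKO BF, against 4.98, 4.92 and 5.15 in DKO CTX, a difference of 0.52 ± 0.15 (limma, adjusted p 0.0167), and differed by 0.21 ± 0.15 in Con. The remaining Siglech probe printed above, which holds no shared run, was lower in BF by -1.36 in DKO and -1.46 in Con, and the probe in the same transcript was higher by 0.44 in DKO and 0.18 in Con. Cx3cr1 was at 3.87, 3.35 and 3.54 in DKO BF, against 3.23, 2.84 and 3.43 in DKO CTX, a difference of 0.42 ± 0.16 with a limma adjusted p of 0.05, just under the threshold, and the groups overlapped. It passed in 7 of 16 alternatives, and its difference was 0.26 without DKO cortex mouse 2. Nearest below the threshold in DKO mice were Selplg, the P-selectin ligand (0.33 ± 0.15, limma adjusted p 0.0898), Cd68 (0.21 ± 0.09, adjusted p 0.0728) and Ctsz (0.20 ± 0.09, adjusted p 0.0827). In Con mice Trem2 (0.20 ± 0.10), Sall1 (-0.37 ± 0.20) and Itgam (-0.25 ± 0.13) had limma adjusted p of 0.13, 0.143 and 0.144. The interaction values above do not show that either region difference depends on genotype.

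The 7 members that passed in Con mice and not in DKO mice belonged to the disease-associated block. None of the 7 passed the interaction test, so their region differences were not shown to depend on genotype. Higher in Con BF were Clec7a (1.27 ± 0.31, limma adjusted p 0.00604), Itgax (0.94 ± 0.22, adjusted p 0.00505), Cd68 (0.33 ± 0.09, adjusted p 0.0091), the lysosomal carboxypeptidase Ctsz (0.27 ± 0.09, adjusted p 0.0214) and Axl, a receptor tyrosine kinase for dying cells (0.22 ± 0.07, adjusted p 0.0284). Lower were Cd9 (-0.55 ± 0.20, limma adjusted p 0.0422) and Fth1 (-0.23 ± 0.08, adjusted p 0.0413), which did not pass with the mouse as a block (limma, adjusted p 0.0545 and 0.0833) and passed in 3 of 15 alternatives each. Clec7a was at -2.67, -2.60 and -3.17 in Con BF, against -3.80, -4.10 and -4.34 in Con CTX, and in DKO mice at -3.02, -3.36 and -3.04 in BF, against -4.09, -2.98 and -4.35 in CTX, where mouse 2 overlapped with BF. Itgax was at -4.40, -4.32 and -4.10 in Con BF, against -5.35, -5.18 and -5.11 in Con CTX. A second probe of Clec7a, well above background on 7 of 12 arrays, had the other sign in Con (-0.94). A second Itgax probe, also on 7 of 12, was higher in Con BF by 0.39. Over the alternatives the Con difference ranged from 0.17 to 1.45 for Clec7a and from 0.26 to 1.01 for Itgax. Each passed in 13 of 15. In Con mice region and slide cannot be told apart. The 12-array fit with slide as a block takes its slide term from DKO cortex alone, mouse 3 against mice 1 and 2. Its values therefore assume that the gap between those DKO mice is an effect of slide. In that fit Clec7a differed by 0.45, Itgax by 0.69, Lpl by 0.66 and Cd9 by 0.43, none passing. Olfml3 (-1.18, limma adjusted p 0.00628) and Trem2 (0.57, adjusted p 0.018) were the members that passed, against 10.8% of all genes. For Trem2, DKO cortex was at 2.10 on slide 2 and at a mean of 1.73 on slide 1.

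**Figure D4:**
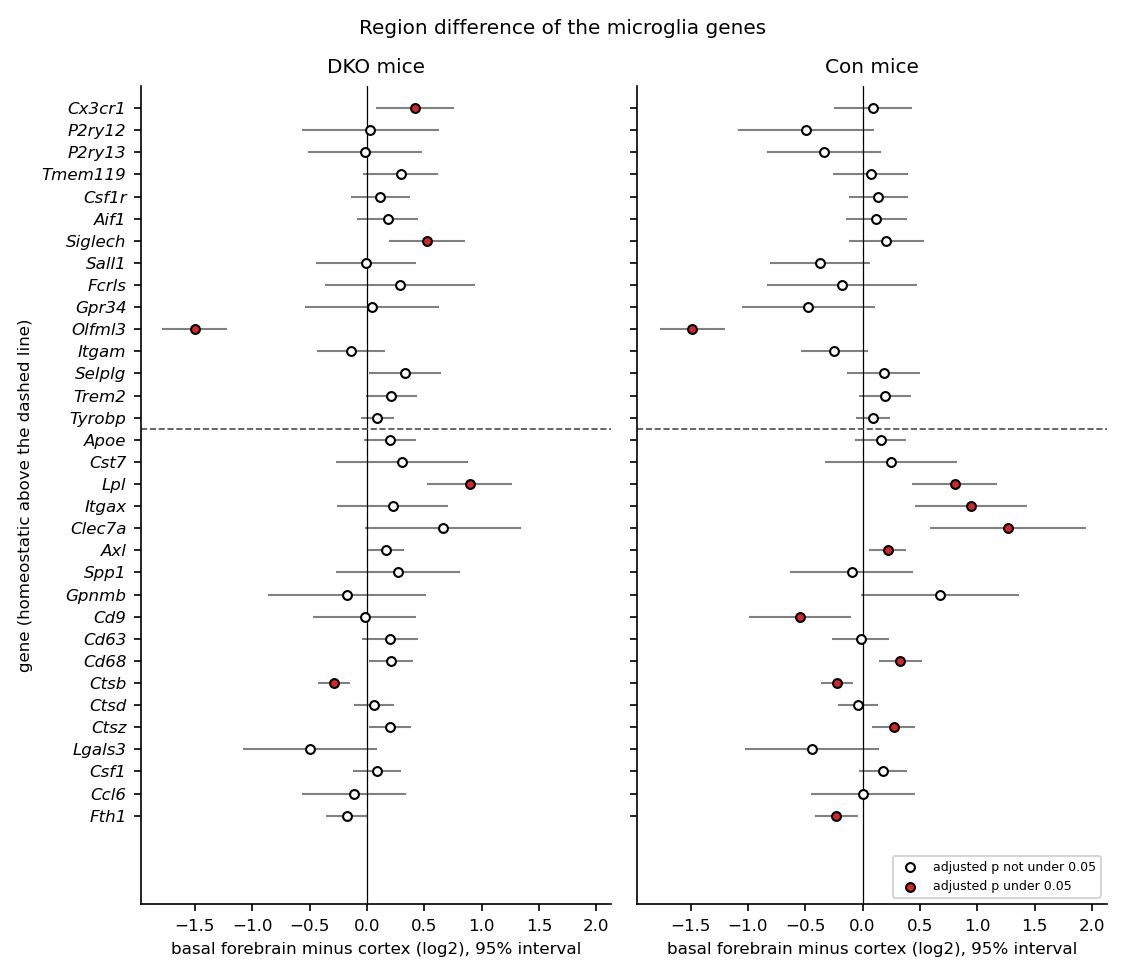
Basal forebrain minus cortex log2 difference of the 33 genes in DKO (left) and Con mice (right), with 95% confidence intervals from the 12-array limma fit; filled marks have an adjusted p under 0.05. Lpl lies right of 0 and Olfml3 and Ctsb left of 0 in both genotypes.

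Second probes gave a check that did not rest on the brightest one. The array held 25 further probes for 16 members, of which 18, for 12 members, were well above background on all 12 arrays and were compared. The sign of the brightest probe was shared by 12 of 18 further probes for BF minus CTX in DKO and 14 of 18 in Con, and by 8 of 18 for DKO minus Con in BF and 14 of 18 in CTX. Cd68 (3 probes) and Lgals3 (2 probes) gave 1 sign in both genotypes. The second Itgam probe, outside the CA repeat, differed by -0.50 between DKO and Con in CTX, where the brightest differed by -0.09.

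**Figure D5:**
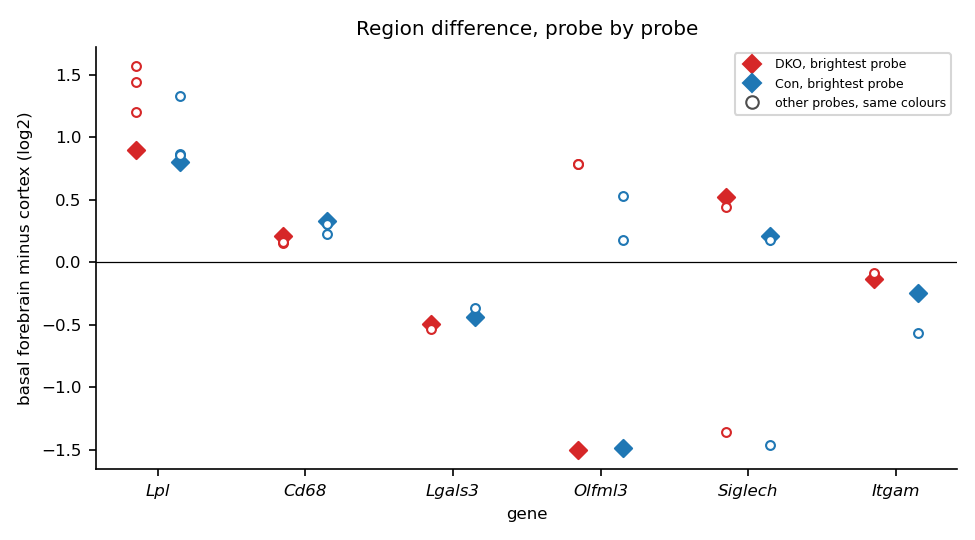
Basal forebrain minus cortex log2 difference for each probe of 6 members that was well above background on all 12 arrays; diamonds are the brightest probe, open circles the others, red DKO and blue Con. The 4 Lpl probes lie above 0, whereas the brightest Olfml3 and a Siglech probe lie near -1.5 and the other probes of those genes above 0.

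Promoter windows were read from RefSeq (GRCm38.p6; 250 bases before to 50 after a gene's start) for 26 of the 33 members; Selplg, Tmem119, Gpr34, Ctsb, Csf1r, Tyrobp and Lpl had no entry. The letters GAGGAAG, a core of the site bound by PU.1, the myeloid factor encoded by Spi1, were searched on both strands. They occurred in 7 of 26 members (26.9%), against 15.4% of 27025 genes with a window. The members were Trem2, Fcrls, P2ry13 and Itgam among the homeostatic genes (4 of 10 with a window, 40.0%) and Axl, Cd63 and Spp1 among the disease-associated ones (3 of 16, 18.8%). Of 17 other microglia genes with a window, 10 (58.8%) held a match, so the letters are not particular to the members. The 250 bases before the start are printed for Trem2, Fcrls and P2ry13, which were lower in DKO without overlap when both regions were averaged. Capitals mark GAGGAAG or its reverse complement CTTCCTC.
Trem2 (chr17:48346151-48346400, + strand): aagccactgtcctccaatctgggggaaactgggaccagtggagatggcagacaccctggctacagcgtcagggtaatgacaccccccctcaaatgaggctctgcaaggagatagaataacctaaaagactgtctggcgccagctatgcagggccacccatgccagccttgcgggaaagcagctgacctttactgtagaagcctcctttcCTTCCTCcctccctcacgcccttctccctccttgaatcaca
Fcrls (chr3:87263525-87263774, - strand): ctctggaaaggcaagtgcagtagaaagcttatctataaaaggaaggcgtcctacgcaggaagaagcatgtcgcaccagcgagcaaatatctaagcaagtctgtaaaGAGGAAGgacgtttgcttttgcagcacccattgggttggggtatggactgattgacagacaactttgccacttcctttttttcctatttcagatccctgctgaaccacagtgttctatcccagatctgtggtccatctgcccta
P2ry13 (chr3:59210883-59211132, - strand): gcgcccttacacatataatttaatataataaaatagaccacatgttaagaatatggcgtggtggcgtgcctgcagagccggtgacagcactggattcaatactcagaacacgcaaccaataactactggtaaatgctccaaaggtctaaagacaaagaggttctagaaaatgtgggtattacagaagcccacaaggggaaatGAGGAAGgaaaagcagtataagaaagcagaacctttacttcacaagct
The match starts 41 bases before the Trem2 start, 144 before that of Fcrls and 48 before that of P2ry13. It describes these letters only. In the same windows P2ry12, Aif1, Sall1 and Cd9 held no match. P2ry12 and P2ry13, neighbours on chromosome 3, both lie inside the span of Med12l in the RefSeq table.

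Other genes of the same biology were also read. Only 0.0306% of all genes passed between genotypes in BF and 0.0116% in CTX. Most calls in BF fell in the list of B-cell genes, where 5 of 8 passed as higher in DKO. In CTX 1 of 7 tested B-cell genes passed, also higher in DKO. None of 26 further microglia genes, 22 further disease-associated genes, 14 genes of Trem2 and DAP12 signalling (13 tested in BF), 14 of Csf1r ligand and TGF-beta maintenance and 12 of TAM receptors and lipid handling passed between DKO and Con in BF or CTX. Their medians lay between -0.07 and 0.08 in BF and between -0.07 and 0.11 in CTX. The further microglia genes had 9 positive and 17 negative differences in BF and 13 of each sign in CTX. Among them Fcgr3, an Fc receptor, had the smallest p in both regions (0.35 in BF and 0.53 in CTX, limma adjusted p 0.973 and 0.261). The 6 proliferation genes were negative in DKO in both regions with medians of -0.46 in BF and -0.45 in CTX, and none passed. Between regions 9 of 26 further microglia genes passed in DKO, against 39.9% of all genes, and 12 of 26 in Con, against 49%. They included Mef2c, which cortical neurons also express (-1.66 in DKO, limma adjusted p 2.63e-07), and the lysosomal Laptm5 (0.85 in DKO, adjusted p 0.00157).

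Markers of other cells moved with the same contrasts. Border macrophages, which also express Cd68, were represented by 9 tested genes, while Cd163 was at background on all 12 arrays. Their mean level ranged from -2.04 to -1.18 in DKO BF, against -2.31 to -1.85 in DKO CTX, and from -1.51 to -1.15 in Con BF, against -2.12 to -1.81 in Con CTX. In each genotype 5 of 9 passed as higher in BF, against 19.3% of all genes in DKO and 18.5% in Con. Stab1 was 1 of them (0.60 in DKO, limma adjusted p 0.00498). Blood-cell lists were higher in DKO mice. The mean neutrophil level ranged from -1.97 to -1.09 in DKO BF, against -3.56 to -3.09 in Con BF. Over both regions 6 of 10 neutrophil genes passed, against 0.161% of all genes. The mean monocyte level ranged from -0.88 to -0.30 in DKO BF, against -1.34 to -1.28 in Con BF. Of 8 monocyte genes 1 passed over both regions, Plac8 (1.89, limma adjusted p 0.0119), against the same share of all genes. The mean level of red-cell genes ranged from 3.09 to 4.75 in DKO BF, against 1.55 to 1.85 in Con BF. Neutrophils and monocytes also express Itgam, Selplg and Tyrobp, and their part in the members' values was not tested. Of the region markers, 10 of 10 basal forebrain genes were higher and 9 of 10 cortex genes lower in BF in both genotypes.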

How the data were processed

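Scans were quantified with Agilent Feature Extraction 10.7.1.1, per the file headers, and the processed signals the authors deposited are background-corrected spot intensities on a linear scale. The authors' deposited table of log2 values, normalized by them, served as an alternative. The members and gene lists were chosen with earlier results of these data known. Control spots and 37 probes flagged as outliers were left out and spots of a probe averaged; 32972 of the 56568 remaining probes took their gene name from RefSeq. Intensities were converted to log2, and each array's 75th percentile was subtracted. The brightest probe stood for a gene. Genes detected above background in every array of 1 or both compared groups were tested with limma 3.58.1 (lmFit, eBayes with trend) in R 4.3.3, with Benjamini-Hochberg adjustment over all genes tested. Genotypes were compared within a region on 6 arrays, and regions and the interaction on 12 arrays in 4 groups. Named are all passing members and the 4 of smallest p in each block and comparison, 2 for the interaction, with other members by their counts or as examples chosen after their values were seen. The number of arrays, 3 a group, limits the precision. Same-mouse arrays of the 2 regions correlated by -0.087 to 0.154 in DKO and 0.212 to 0.39 in Con after subtracting group means. On simulated data, 58.2% of genes changed 2-fold were recovered in cortex and 50.7% in basal forebrain. Each simulated gene had independent noise of its own spread averaged over the 4 groups, with no slide effect. These shares therefore do not describe the cortex comparison, where slide was partly tied to genotype. The floxed gene and 1 gene of the wider lists are not reported here.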

Additional observations from a re-analysis of the deposited data

How the results depend on the processing

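The basal forebrain genotype comparison gave 0 members under all alternatives, which were normexp background correction, quantile scaling, the authors' values, no filter or a stricter one on dim probes, the mean of all probes, no variance trend, all 12 arrays, each array left out, the mice with Xist signal left out and the replicate number as a block. Cortex gave 0 to 14 members when each array was left out (0.00382 to 37.4% of all genes), and 0 with slide as a block. Cortex gave 20 without the mice with Xist signal. That fit leaves DKO mouse 2 alone in its group, and many other genes passed in it too. The mean of both regions gave 0 to 1 member (0.862% of all genes where it gave 1). The interaction gave 0 to 2 members (9.59% of all genes where it gave 2). The Con region difference, 10 members and 49% of genes, gave 6 to 10 with an array left out (37.5 to 50.5%) and 2 with slide as a block (10.8%). The DKO region difference, 5 members and 39.9% of genes, gave 4 to 8 with an array left out (28.7 to 40.0%). It gave 15 with quantile scaling (42.4%), 15 with the authors' values (42.3%), 3 with the mean of probes (37.5%) and 8 with slide as a block (37.8%). The cause of these moves was not tested. Of the values of named members under an alternative, 702 kept their direction and their side of the threshold, 30 newly passed and 56 no longer did. Signs turned for Cd9 (0.02) and Clec7a (0.06) in the BF genotype difference with the mean of probes, for Sall1 (0.08) and Cd63 (0.03) in cortex with slide as a block or slide 2 alone, for Cd9 (0.43), Sall1 (0.43) and Itgam (0.06) in the Con region difference with slide as a block, and for Siglech (-0.13) and Olfml3 (0.02) in the DKO region difference with the mean of probes. Shared replicate numbers did not pair DKO with Con mice (same-number correlations -0.49 to 0.451 in BF and -0.015 to 0.267 in CTX), and the replicate block gave 0 members in BF, CTX and their mean. With the mouse as a block, pairing the regions, 8 Con and 6 DKO members passed, against 49.5 and 40.1% of all genes. The interaction gave 0. With 3 mice a group, a miss of the threshold does not show that a member did not differ.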
